A study of Mus musculus with 4 samples.

Results

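The 10 genes described here carry out cystine import, glutathione synthesis and recycling, and the control of lipid peroxidation: Slc7a11, Slc3a2, Gclc, Gclm, Gss, Gsr, Gpx4, Acsl4, Aifm2 and Mgst1. They were named as a functional group and matched by mouse symbol to the Ensembl identifiers of the deposited table, which lists 55385 genes; all 10 were found and all 10 were among the 14238 genes expressed highly enough to test. RNA was sequenced in bulk from 4TO7 cells, a mouse mammary carcinoma line, recovered from tumors of Balb/c mice. A pair of libraries came from immunotherapy-resistant tumors (by the series' design, resistance to anti-PD-L1) and a pair from control tumors, 2 a group. No genetic change is labelled in either group. The treatment label of all 4 samples reads "Untreated", while the protocol of all 4 names anti-PD-L1, which blocks a ligand that restrains T cells, so what the control tumors received is not resolved. The labels give no animal age. Tumors were broken up with enzymes and the cells harvested in medium before RNA extraction. The series' design calls the 2 samples of each group biological replicates, but no label ties them to different mice or tumors, and p-values cover just the variation among these 4 libraries.

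Cystine, the oxidised dimer of cysteine, enters cells through system xc-, an exchanger made of the transport subunit Slc7a11 and the heavy chain Slc3a2, and leaves glutamate outside. Inside the cell cystine is reduced to cysteine, which limits the synthesis of glutathione. Ferroptosis is a form of cell death driven by peroxidation of polyunsaturated phospholipids: Acsl4 supplies the lipids that are oxidised, the selenoprotein Gpx4 uses glutathione to reduce the lipid peroxides, and Aifm2, also called FSP1, acts beside Gpx4 by keeping ubiquinone reduced. In tumors this pathway is known as a point of contact with immunity, since interferon gamma from T cells can lower Slc7a11 and Slc3a2 transcripts.

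Start-site sequences from RefSeq (build GRCm38.p6) were at hand for 8 of the 10 genes, in 12 windows of 300 bases that run from 250 bases before to 50 after an annotated start. Gclc and Gsr had no window and were not searched. Both strands were searched for TGATGNAA, the core of the element bound by Atf4 and its C/EBP partners, and for TGACNNNGC, the core of the antioxidant response element bound by NRF2. The 3 windows that held a match are printed 5′ to 3′ on the strand of the gene, with the matched letters in capitals. The Slc7a11 window is chr3:50443564-50443863 on the minus strand, the Mgst1 window is chr6:138140277-138140576 on the plus strand, and the Gclm window is chr3:122245307-122245606 on the plus strand.
Slc7a11: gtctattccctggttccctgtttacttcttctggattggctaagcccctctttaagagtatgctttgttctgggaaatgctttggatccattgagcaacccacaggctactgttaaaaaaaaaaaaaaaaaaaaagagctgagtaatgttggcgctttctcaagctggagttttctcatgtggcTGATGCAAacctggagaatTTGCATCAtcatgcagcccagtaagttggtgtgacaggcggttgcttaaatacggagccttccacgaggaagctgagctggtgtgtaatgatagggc
Mgst1: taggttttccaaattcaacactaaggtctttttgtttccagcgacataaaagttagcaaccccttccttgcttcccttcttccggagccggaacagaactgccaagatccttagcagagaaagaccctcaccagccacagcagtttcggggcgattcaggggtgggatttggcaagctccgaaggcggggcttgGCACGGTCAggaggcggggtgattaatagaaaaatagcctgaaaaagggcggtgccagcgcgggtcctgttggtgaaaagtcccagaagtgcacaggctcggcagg
Gclm: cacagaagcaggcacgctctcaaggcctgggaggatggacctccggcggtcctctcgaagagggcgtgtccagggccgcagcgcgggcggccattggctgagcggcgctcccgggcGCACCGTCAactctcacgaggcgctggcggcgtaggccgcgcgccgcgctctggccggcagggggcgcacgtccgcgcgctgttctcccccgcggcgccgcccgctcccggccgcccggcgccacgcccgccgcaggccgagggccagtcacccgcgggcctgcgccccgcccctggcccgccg

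The Slc7a11 window held the Atf4 core 2 times, once on each strand, with first letters at -66 and -47 from the start. The antioxidant core lay on the reverse strand at -56 in the Mgst1 window and at -134 in the Gclm window. No 2 of these matches overlapped. Of 32851 start-site windows of this length in the mouse table, 3.97% held the Atf4 core and 12.4% held the antioxidant core. Slc7a11 and Mgst1 are among the genes that rose, whereas Gclm did not pass the test, so the antioxidant core stood before genes of both kinds.

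Resistant cells had more transcripts of the cystine transporter Slc7a11, of the glutathione-synthesising subunit Gclc, of the lipid-activating enzyme Acsl4 and of the membrane-bound transferase Mgst1. These 4 genes rose by 0.65 to 0.80 on the log2 scale, which is 1.57 to 1.74-fold. None of the 10 fell, and 6 did not pass the test, among them the heavy chain Slc3a2, the modifier subunit Gclm and the peroxidase Gpx4. The 4 that rose are 40% of the group, whereas 5.32% of all tested genes rose and 4.73% fell, 10.1% in all (limma, adjusted p under 0.05). At an unadjusted p under 0.05, 5 of the 10 passed, all of them higher in resistant cells, as were 13.8% of all tested genes. The resistant libraries both lay above both control libraries for 6 of the 10, or 60%, against 28.4% of all tested genes, and the groups overlapped for the other 4. Over all tested genes the resistant libraries lay below both controls for 28.3%, so that the groups did not overlap for 56.7%. The median log2 fold change of the 10 was 0.27, against 0.0023 over all tested genes. The 10 were chosen with earlier results of these data known, so these contrasts with all tested genes are not a test of the group.

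**Figure D1:**
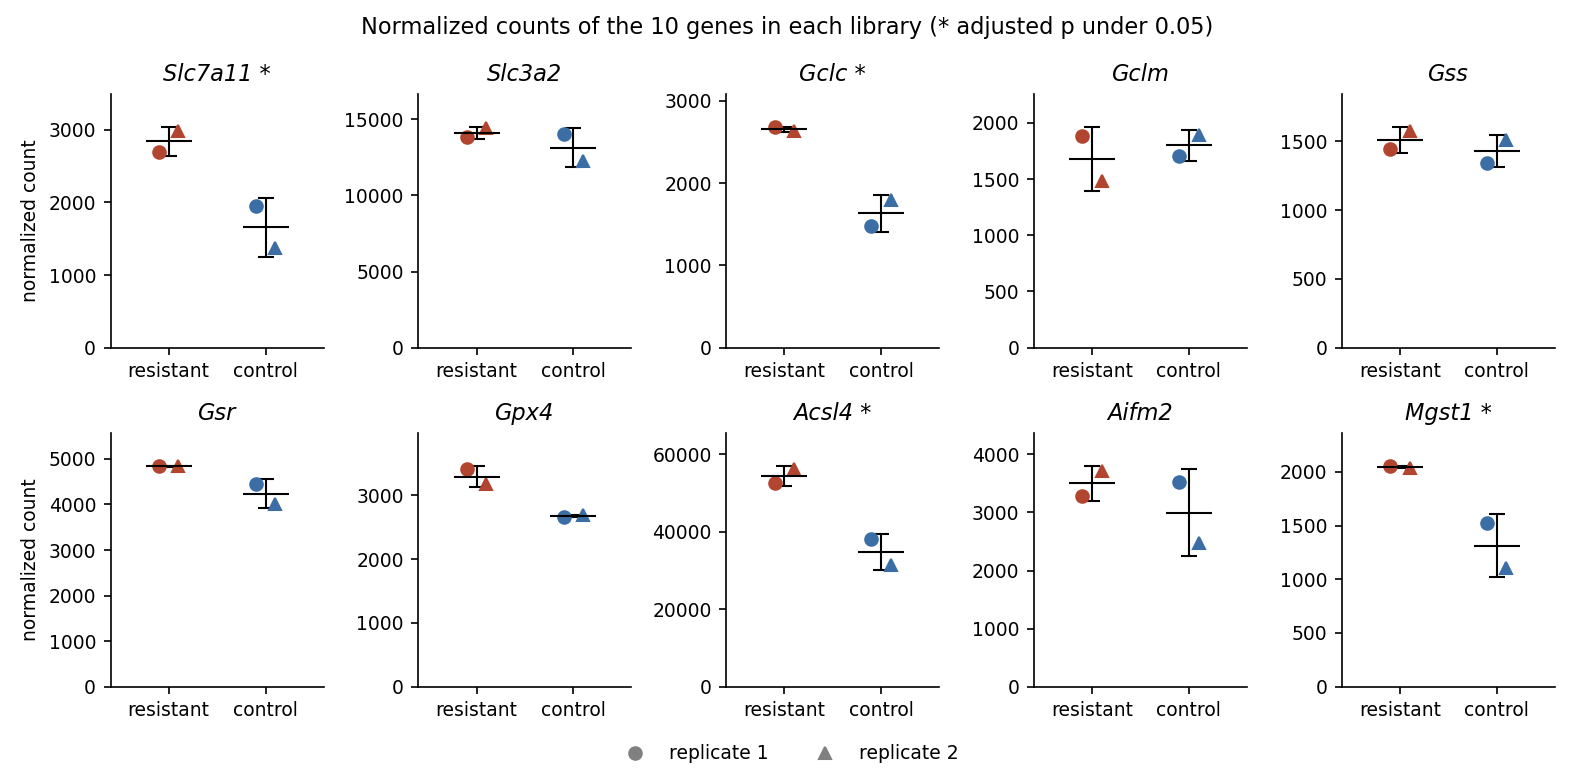
Normalized counts (y axis, from 0) of the 10 genes in the resistant and control libraries, with replicate 1 as circles and replicate 2 as triangles; horizontal bars are means and error bars SD, n = 2. The resistant libraries lie above both controls for Slc7a11, Gclc, Gsr, Gpx4, Acsl4 and Mgst1, and overlap them for Slc3a2, Gclm, Gss and Aifm2.

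Of the 2 chains of the cystine exchanger, the transport subunit differed and the heavy chain was not shown to. Slc7a11 (ENSMUSG00000027737.10, chromosome 3, 49892526 to 50443614, minus strand, GRCm38), the light chain that carries cystine in and glutamate out, had 2699.5 and 2984 normalized counts in resistant libraries and 1945 and 1371 in control libraries. Both resistant libraries lay above both controls, and the control libraries stood further apart from each other than the resistant ones. Its log2 fold change was 0.80 ± 0.17 (SE, adjusted p = 0.0299), the largest of the 10. Slc3a2 (ENSMUSG00000010095.13, chromosome 19, 8706882 to 8723369), the heavy chain that brings Slc7a11 and several other light chains to the plasma membrane, had 13827 and 14393 normalized counts in resistant libraries and 14029 and 12245 in control libraries. Here the groups overlapped, and the log2 fold change of 0.11 ± 0.11 did not pass (adjusted p = 0.6; 95% interval -0.16 to 0.37).

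Glutathione is made in a pair of steps, and the genes of these steps did not share one pattern. Gclc (ENSMUSG00000032350.9, chromosome 9, 77754535 to 77794485) encodes the catalytic subunit of glutamate-cysteine ligase, which joins glutamate to cysteine in the rate-limiting step. It had 2678 and 2635 normalized counts in resistant libraries and 1476 and 1790.2 in control libraries, with no overlap. Its log2 fold change of 0.71 ± 0.13 had the smallest p of the 10 (adjusted p = 0.0166). Gclm (ENSMUSG00000028124.15, chromosome 3, 122245557 to 122270732), the modifier subunit that raises the efficiency of Gclc, had 1882 and 1479 normalized counts in resistant libraries and 1701 and 1895 in control libraries. It was the only one of the 10 with a negative value, and the groups overlapped (log2 fold change -0.11 ± 0.15, adjusted p = 0.7; 95% interval -0.45 to 0.24). Gss (ENSMUSG00000027610.17, chromosome 2, 155563181 to 155592810), glutathione synthetase, which adds glycine in the closing step, had 1441 and 1578 normalized counts in resistant libraries and 1345 and 1512 in control libraries. These values overlapped as well (0.08 ± 0.13, adjusted p = 0.735; 95% interval -0.21 to 0.38).

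Among those of the 10 that regenerate and spend glutathione, Mgst1 rose, and Gsr and Gpx4 did not pass. Gsr (ENSMUSG00000031584.16, chromosome 8, 33652523 to 33698163), the reductase that returns oxidised glutathione to its reduced form, had 4849.8 and 4835 normalized counts in resistant libraries and 4459 and 4017 in control libraries. The groups did not overlap, but the difference of 0.19 ± 0.11 did not pass (adjusted p = 0.293; 95% interval -0.05 to 0.44). Gpx4 (ENSMUSG00000075706.10, chromosome 10, 80047166 to 80056439), the glutathione peroxidase of membrane lipids, had 3418 and 3177 normalized counts in resistant libraries and 2664 and 2686 in control libraries. It was again higher in both resistant libraries, and its log2 fold change of 0.30 ± 0.11 had a 95% interval of 0.05 to 0.55 before adjustment but did not pass over all genes (adjusted p = 0.121). Mgst1 (ENSMUSG00000008540.11, chromosome 6, 138140316 to 138156755), a glutathione transferase and peroxidase of microsomal and outer mitochondrial membranes, had 2054 and 2038 normalized counts in resistant libraries and 1521 and 1105 in control libraries. The groups did not overlap and the gene rose by 0.66 ± 0.16 on the log2 scale (adjusted p = 0.0453), close to the threshold.

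Acsl4, which favours ferroptosis, also rose, and Aifm2, which restrains it, did not pass. Acsl4 (ENSMUSG00000031278.12, chromosome X, 142317993 to 142390535), an acyl-CoA synthetase that prefers arachidonic and adrenic acid, had 52630.2 and 56300.5 normalized counts in resistant libraries and 38153 and 31475 in control libraries. The groups did not overlap, and the log2 fold change was 0.65 ± 0.14 (adjusted p = 0.0271). Aifm2 (ENSMUSG00000020085.15, chromosome 10, 61715263 to 61739260) had 3287 and 3718 normalized counts in resistant libraries and 3526 and 2468 in control libraries. Control replicate 1 lay between the 2 resistant libraries and control replicate 2 well below them, and the difference of 0.24 ± 0.17 did not pass (adjusted p = 0.419; 95% interval -0.16 to 0.65). Without control replicate 1 the Aifm2 value was 0.50, and without control replicate 2 it was -0.013.

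**Figure D2:**
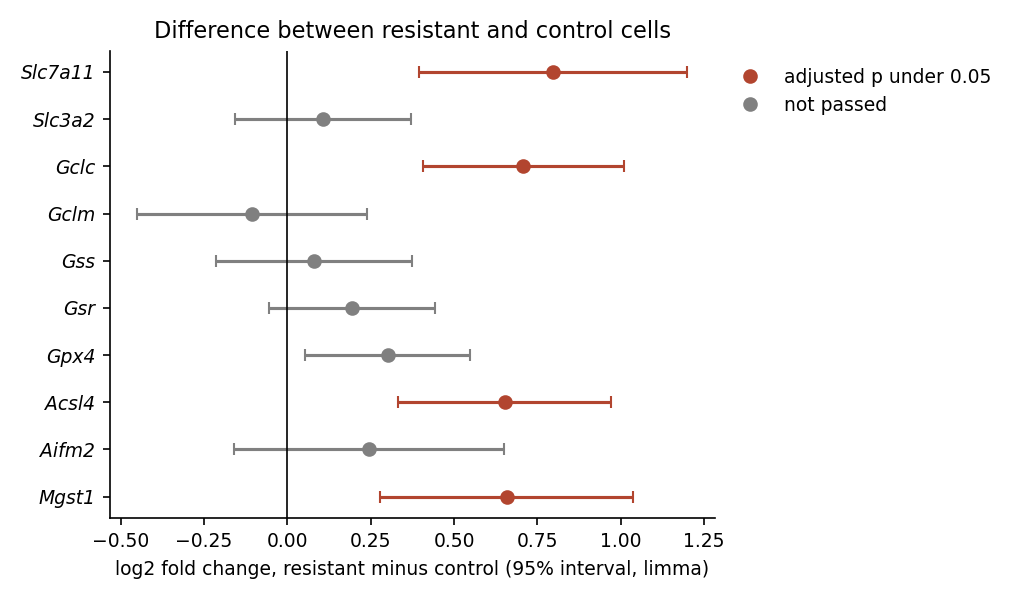
Log2 fold change, resistant minus control (x axis), of the 10 genes with 95% intervals from limma, n = 2 libraries a group; red marks genes with an adjusted p under 0.05. The intervals of Slc7a11, Gclc, Acsl4, Mgst1 and Gpx4 lie above 0, and that of Gpx4, at 0.05 to 0.55, did not pass after adjustment over all tested genes.

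None of the 4 calls held without resistant replicate 1 or without resistant replicate 2, fits in which the lone resistant library is assumed to vary like the control pair, and the direction of all 4 stayed positive. Without resistant replicate 1 and without resistant replicate 2, the log2 fold changes were 0.87 (adjusted p = 0.0792) and 0.72 (adjusted p = 0.162) for Slc7a11, and 0.70 (adjusted p = 0.124) and 0.72 (adjusted p = 0.115) for Gclc. For Acsl4 they were 0.70 (adjusted p = 0.184) and 0.60 (adjusted p = 0.27), and for Mgst1 0.65 (adjusted p = 0.224) and 0.66 (adjusted p = 0.208). At an unadjusted p under 0.05, 4 of the 10 genes were higher in each of these limma fits, against 7.28% of all tested genes without resistant replicate 1 and 6.88% without resistant replicate 2. Without control replicate 2 the value of Mgst1 was 0.43, and without control replicate 1 it was 0.89. Mgst1 also lost its call with a stricter filter on low values (adjusted p = 0.0546) and with upper quartile scaling (adjusted p = 0.0534), and all 4 lost it with no filter or without a variance trend. Exons of Gss overlap those of Acss2 and exons of Aifm2 those of H2afy2 on the opposite strand, over 6.68% and 5.65% of their exon length, and no source used here states whether counting used the strand, so reads of such partners may be mixed.

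Partner genes were also compared within each library, where the scaling between libraries drops out. The ratio of Slc7a11 to Slc3a2 reads was 0.195 and 0.207 in resistant libraries and 0.139 and 0.112 in control libraries. The ratio of Gclc to Gclm reads was 1.42 and 1.78 in resistant libraries and 0.868 and 0.945 in control libraries. These reads are not corrected for exon length, which is 3.77 kb for Gclc and 6.29 kb for Gclm. Per kilobase, Gclc lay above Gclm in every library, also in controls (31.0 against 21.4 TPM and 39.3 against 24.9 TPM). The ratio of Acsl4 to Gpx4 reads was 15.4 and 17.7 in resistant libraries and 14.3 and 11.7 in control libraries. Each ratio sets a gene that rose over one that did not pass, so a higher ratio follows from the fold changes above. It is no separate support for them. In each of the 3 ratios both resistant libraries lay above both controls, by 0.69, 0.81 and 0.35 on the log2 scale. A two-sided exact permutation test gave p = 0.333 for each (adjusted p = 0.333 over the 3), which is the smallest p that this test can give with 2 libraries against 2.

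**Figure D3:**
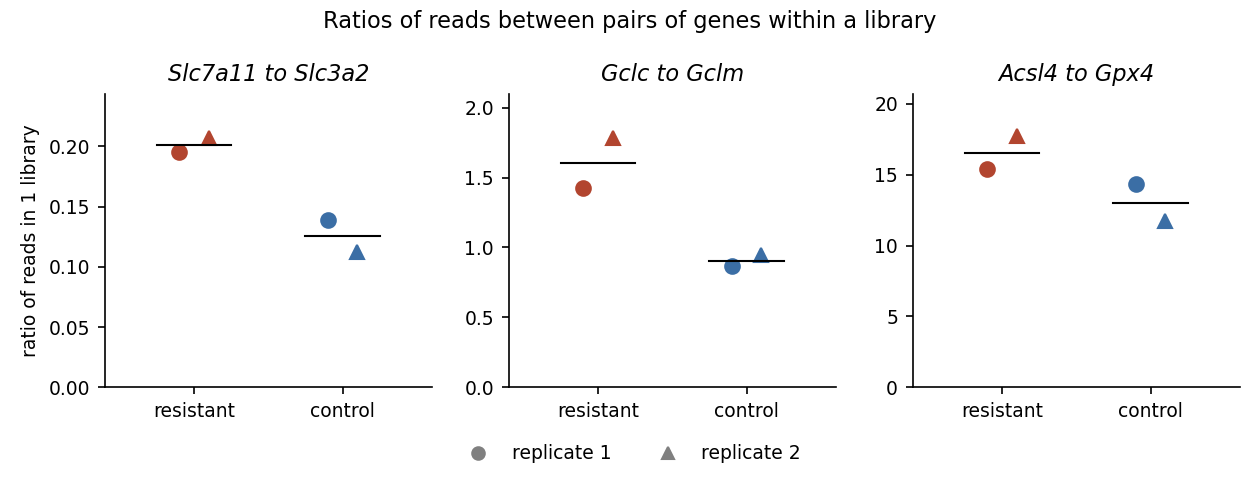
Ratio of reads between 2 genes of the same library (y axis, from 0) for 3 pairs, in resistant and control libraries; circles are replicate 1, triangles replicate 2 and bars means, n = 2. The ratio of Gclc to Gclm is 1.42 and 1.78 in resistant libraries and 0.868 and 0.945 in control libraries.

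Levels were set side by side per kilobase of exon, in TPM, each gene's reads per kilobase as a share of all genes' and scaled to a fixed total, computed from the recovered reads. Acsl4 was the most abundant of the 10, at 786 ± 31.3 TPM in resistant cells and 520.5 ± 54.3 TPM in control cells (SD, n = 2 each). Slc3a2 followed at 312 ± 6.42 TPM in resistant cells and 301 ± 19.5 TPM in control cells, and did not overlap Acsl4 in any library. Slc7a11 was the least abundant, at 15.9 ± 1.00 TPM in resistant cells and 9.61 ± 2.06 TPM in control cells, with its highest library (16.6 TPM) below the lowest of the next gene, Gss (18.0 TPM). The annotated exons of Slc7a11 span 13.9 kb in all, so its level per kilobase would be higher if shorter transcripts dominate. Between these ends the order was Gpx4, Gsr, Mgst1, Aifm2, Gclc, Gclm and Gss in resistant cells, and in control cells Aifm2 stood before Mgst1. Over all 4 libraries the ranges of Gpx4 (122 to 155 TPM) and Gsr (121 to 138 TPM) overlapped, as did those of Mgst1 (45.5 to 80.0 TPM), Aifm2 (49.6 to 70.0 TPM) and Gclc (31.0 to 55.8 TPM), and those of Gclm (18.2 to 24.9 TPM) and Gss (18.0 to 21.2 TPM). Behind these levels stood 1096 to 52490 reads for a gene in a library.

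The genes around the 4 that rose had smaller median differences than these 4. These 4 were picked because they passed and their neighbours were not, so that contrast was nearly fixed in advance. Within 5 Mb on each side, the other tested genes had a median log2 fold change of -0.06 around Slc7a11 (38 genes), 0.24 around Gclc (41 genes), 0.20 around Acsl4 (30 genes) and 0.24 around Mgst1 (50 genes). The median over all tested genes was 0.0023, below those around Gclc, Acsl4 and Mgst1. Around these, 6, 5 and 5 genes rose and 1, 1 and 0 fell. Around Slc7a11, 1 rose and 3 fell. Of all tested genes 5.32% rose and 4.73% fell. Whether location has a part in the rise of the 4 was not tested. Pcdh18, a protocadherin and the tested gene next to Slc7a11 at a gap of 135 kb, fell in resistant cells, at 199.6 ± 3.13 against 706 ± 11.9 normalized counts in control cells (log2 fold change -1.82 ± 0.16, adjusted p = 0.000826). Noct, the next tested gene on the other side of Slc7a11, had -0.04 ± 0.14 (adjusted p = 0.882). Elovl5, a fatty acid elongase beside Gclc, had 0.41 ± 0.11 (adjusted p = 0.0597). Nxt2 beside Acsl4 had 0.41 ± 0.13 (adjusted p = 0.1), and Plekha5 beside Mgst1 had 0.38 ± 0.14 (adjusted p = 0.135). On the remaining sides, Gm19569 beside Gclc (-0.99 ± 0.36), Gm5763 beside Acsl4 (0.19 ± 0.37) and Slc15a5 beside Mgst1 (0.95 ± 0.43) had low counts and did not pass.

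The surrounding pathways were read from 11 lists that hold 172 further genes, 156 of them tested. Of these 10 rose and 4 fell, or 6.41% and 2.56%, shares near the 5.32% and 4.73% of all tested genes, and their median log2 fold change was 0.09. Of 18 NRF2 targets outside the 10, 2 rose and none fell, with a median of 0.09. They were the exporter Abcc4, at 939 ± 29.5 normalized counts in resistant cells and 406 ± 32.1 in control cells (1.21 ± 0.14, adjusted p = 0.00322), and Osgin1 (0.93 ± 0.16, adjusted p = 0.0124). Of 14 regulators of Slc7a11 and NRF2, 1 rose and 2 fell, with a median of -0.06. The stress-induced factor Atf3 rose, at 2868 and 2189 normalized counts in resistant libraries against 1297 and 1533 in control libraries (0.83 ± 0.16, adjusted p = 0.0209). Bach1, a repressor of NRF2 targets, fell, at 2842 and 2972 normalized counts in resistant libraries against 3788 and 3949.5 in control libraries (-0.41 ± 0.10, adjusted p = 0.048).

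The factors whose motifs were searched for in the start-site windows did not pass: Atf4 had 33043 and 29015 normalized counts in resistant libraries against 26158 and 24974 in control libraries (0.28 ± 0.12, adjusted p = 0.19), and Nfe2l2, which encodes NRF2, had -0.05 ± 0.10 (adjusted p = 0.794). Its inhibitor Keap1 had 0.04 ± 0.11 (adjusted p = 0.869). These 3 genes, Cth and Cbs were named after their values were seen.

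In glutathione use and turnover, 2 of 19 tested genes rose and none fell, with a median of 0.16. Chac1, which cleaves glutathione in the cytosol and is a known Atf4 target, rose, at 4234 and 4252 normalized counts in resistant libraries against 2576 and 2429 in control libraries (0.76 ± 0.10, adjusted p = 0.00563). Hagh, the glyoxalase that releases glutathione from its lactoyl conjugate, rose by 0.46 ± 0.11 on the log2 scale (adjusted p = 0.0462). None of 11 tested genes for cysteine supply from methionine passed, with a median of 0.16, and 3 were higher at an unadjusted p under 0.05, where 13.8% of all tested genes were. The most abundant, Ahcyl1 and the methionine adenosyltransferase Mat2a, had -0.08 ± 0.12 and 0.37 ± 0.15. Cth, the enzyme that releases cysteine from cystathionine, had 1001 and 1038 normalized counts in resistant libraries and 749 and 546 in control libraries, just short of the threshold (0.67 ± 0.18, adjusted p = 0.0539), and Cbs, the enzyme before it, had at most 1.07 normalized counts in a library. The other light chains that pair with Slc3a2 did not pass in any of 3 tested genes (median 0.27, 1 higher at an unadjusted p under 0.05), with Slc7a5 at 0.23 ± 0.15 and Slc7a6 at 0.27 ± 0.12. Of 14 tested glutathione transferases, Gstm7 alone fell (-1.06 ± 0.26, adjusted p = 0.0429) and none rose, with a median of -0.01; reads of the Gstm genes can be split among close paralogs.

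The counts in the lists closer to lipid peroxidation stand beside 5.32% of all tested genes that rose and 4.73% that fell. Of 16 thioredoxin, peroxiredoxin and dismutase genes, the mitochondrial dismutase Sod2 (0.54 ± 0.11, adjusted p = 0.0287) and the thioredoxin-glutathione reductase Txnrd3 (0.65 ± 0.16, adjusted p = 0.0467) rose and none fell, with a median of 0.15. None of 9 selenoprotein synthesis genes passed (median 0.16, 2 higher at an unadjusted p under 0.05), with the selenocysteine lyase Scly at -0.15 ± 0.12 and the selenoprotein P receptor Lrp8 at 0.28 ± 0.12. Of 18 tested ubiquinone, biopterin and other suppressor genes, 1 rose and none fell (median 0.12): Stard7, which moves phosphatidylcholine and ubiquinone between membranes, at 0.54 ± 0.13 (adjusted p = 0.0388). Of 15 tested genes of polyunsaturated lipid synthesis and peroxidation, 1 rose and none fell (median 0.09): the phospholipase Pla2g6, at 0.46 ± 0.11 (adjusted p = 0.0451). Of 23 tested iron genes, the mitochondrial iron importer Slc25a37 rose (0.51 ± 0.12, adjusted p = 0.0365) and the zinc and iron transporter Slc39a8 fell (-0.69 ± 0.15, adjusted p = 0.0271), with a median of 0.06. Of the 14 calls in these lists, 2 held without resistant replicate 1 (Abcc4 among them), 3 without resistant replicate 2 (Abcc4 and Atf3 among them), and all 14 without either control library in turn. In a fit without a control library, the lone control is assumed to vary like the resistant pair. That pair stood closer together than the control pair over all tested genes (SD of the log2 difference 0.31 against 0.45). Calls kept in those fits therefore say little about how firm they are. By total counts in place of the deposited scaling, 9 of the 14 held.

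**Figure D4:**
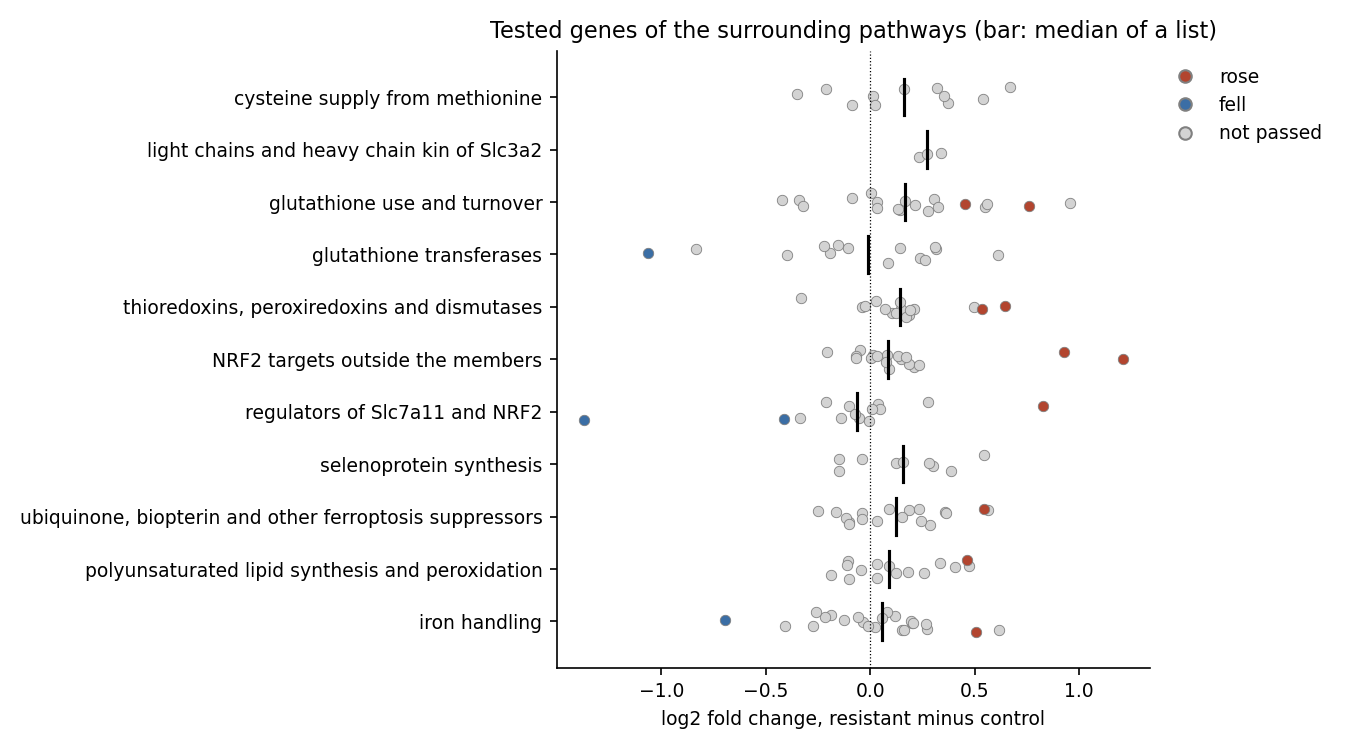
Log2 fold change, resistant minus control (x axis), of the tested genes of 11 pathway lists, 1 point a gene, with genes that rose in red, genes that fell in blue and genes that did not pass in grey; the black bar is the median of a list and vertical scatter is only for legibility. Medians lie between -0.06 and 0.27, and 10 rising and 4 falling genes stand among 156.

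The 4 libraries held 45666470 to 49592054 counted reads. The labelled cell type was checked on its keratins: Krt18, the most abundant carcinoma marker, had 30056 and 35171 normalized counts in resistant libraries and 42630.2 and 27813 in control libraries. Of the 5 carcinoma markers, Krt8, Krt18 and Cdh1 did not pass, and the others moved in opposite directions. Krt19, another keratin, rose, at 298 and 425 normalized counts in resistant libraries against 48.0 and 41.4 in control libraries (2.97 ± 0.25, adjusted p = 0.000812). Epcam, an epithelial adhesion molecule, fell, at 87.6 and 114 normalized counts in resistant libraries against 341 and 246 in control libraries (-1.53 ± 0.25, adjusted p = 0.011), and its adjusted p was 0.0723 without resistant replicate 1. Of 10 leukocyte markers, 2 had no read in any library, and the list summed to 10375 to 10966 normalized counts in resistant libraries against 4034 to 6781 in control libraries. Most of this was Cd68, a lysosomal membrane protein used as a macrophage marker (10566 and 9975 in resistant libraries, 3227 and 6349 in control libraries). Nearly all of the rest was S100a8, at 394 and 393 normalized counts in resistant libraries and 800 and 421 in control libraries. S100a8 was lower in resistant cells without overlap, but the difference did not pass (-0.56 ± 0.28, adjusted p = 0.255). The pan-leukocyte gene Ptprc had at most 2.15 normalized counts and the macrophage gene Adgre1 at most 1.01 in a library. Endothelial markers summed to 18.3 to 21.5 normalized counts in resistant libraries and 26.2 to 34.6 in control libraries, with Pecam1 the highest, and 4 adipocyte and 4 erythroid markers, led by Plin1 and Alas2, to at most 5.36. Fibroblast and pericyte markers summed to 7571 to 9025 normalized counts in resistant libraries and 6529 to 9629 in control libraries, nearly all of it Pdgfra, with the fibroblast gene Dpt at 0 in every library. Within this list the matrix proteoglycan Dcn fell, at 163 and 143 normalized counts in resistant libraries against 763 and 483 in control libraries (-1.99 ± 0.24, adjusted p = 0.00343). The receptor Pdgfrb rose, at 352 and 458 normalized counts in resistant libraries against 218 and 185 in control libraries (1.00 ± 0.20, adjusted p = 0.0252), a call that ended without resistant replicate 1 (adjusted p = 0.0799) or 2 (adjusted p = 0.288). Krt19, Epcam, S100a8, Dcn and Pdgfrb were named after their values were seen. Mitochondrially encoded transcripts took 0.878% and 0.969% of reads in resistant libraries and 0.536% and 0.429% in control libraries, and the part in the results of these transcripts, of Cd68 and of the other markers that passed was not tested. In bulk RNA, fewer cells of a type and less RNA per cell cannot be told apart.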

How the data were processed

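The deposited table holds log2 values, which the authors made with STAR and DESeq2 on the mm10 build per the submitters' processing notes; versions, settings, annotation and strand are not given in the sources used here. Undoing the log2 and subtracting 1 left whole reads times a constant of each library in 100% of values (tolerance 0.01 reads), so a value is log2(count divided by a size factor, plus 1), and reads were recovered from it. Depth was 45666470 to 49592054 reads. Groups came from the source labels and columns were matched by title. Symbols were joined for 55144 identifiers; coordinates and exon lengths are GENCODE M21.

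The deposited values (pseudocount 1) of genes averaging 10 or more normalized counts entered limma 3.58.1 under R 4.3.3 (unblocked lmFit, then eBayes with trend), two-sided, adjusted by Benjamini-Hochberg over all 14238 at 0.05. Fold changes are resistant minus control; on this scale those of low genes are understated. The 10 genes and all lists were chosen with earlier results of these data known. Named beside the 10 were up to 3 called genes with the smallest p of each list (the 2 highest where none passed), the highest marker of each cell type and the genes flanking called ones. The fit was tested on simulated data with an assumed spread. It called 18% of 50 genes changed 1.5-fold and 84% of 50 genes changed 2-fold. A gene that did not pass may therefore still differ. A gene counted in the lists is not reported here by name.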

Additional observations from a re-analysis of the deposited data

How the results depend on the processing

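With 2 libraries a group, the number of calls depends on how the spread is estimated. Against 1432 genes and 4 of the 10 members of the pathway in limma, 311 genes and 0 of the 10 passed with no filter on low values, and 623 genes and 0 of the 10 with a variance not tied to expression; at an unadjusted p under 0.05, 5 and 4 of the 10 were higher in resistant cells, against 8.57% and 12.0% of all genes in these fits. Leaving out 1 library gave 414 to 4067 genes and 0 to 5 of the 10. The sign changed for genes that had not passed: leaving out 1 library, Gclm ranged from -0.28 to 0.068, Gss from -0.0038 to 0.16 and Aifm2 from -0.013 to 0.50 on the log2 scale. Slc7a11, Gclc, Acsl4 and Mgst1 were positive in all 14 alternatives, over 0.54 to 1.05, 0.57 to 0.85, 0.51 to 0.79 and 0.43 to 0.89. Pseudocounts of 0.25 and 10, total count scaling, robust moderation and limma voom on the recovered reads kept 4 of the 10 calls; a filter at a mean of 50 and upper quartile scaling kept 3. With a replicate block, 1213 genes and 4 of the 10 passed, but the labels do not say that shared numbers mark a pair. Deviations of same-numbered libraries correlated at -0.357, so differently numbered libraries tended to deviate the same way. What lies behind this was not tested. Beyond leaving out libraries and these settings, the cause of lost calls was not tested.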

Other observations

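Some antioxidant and iron genes overlapped between the groups and had libraries of a group that stood far apart. Txnrd1, the cytosolic thioredoxin reductase and an NRF2 target, had 22462 and 14931 normalized counts in resistant libraries and 11189 and 23168 in control libraries, so its lowest and highest values were both in control cells (log2 fold change 0.19 ± 0.33, limma adjusted p = 0.763). Nqo1, a quinone reductase and NRF2 target, had 1035 and 855 normalized counts in resistant libraries and 821 and 1439 in control libraries (-0.21 ± 0.25, adjusted p = 0.652). Tfrc, the transferrin receptor that takes up iron, had 4038 and 2867 normalized counts in resistant libraries and 2557 and 3655 in control libraries (0.15 ± 0.21, adjusted p = 0.693). In these 3 genes and in Gclm, resistant replicate 1 lay above resistant replicate 2 and control replicate 2 above control replicate 1, whereas Slc7a11, Acsl4, Aifm2 and Mgst1 were lower in control replicate 2 than in control replicate 1. These genes were picked after their values were seen, and no test was run on the pattern.

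The lipoxygenases, enzymes that oxidise polyunsaturated fatty acids, were close to silent: Alox12 had no read in any library, Alox5 at most 3.06 normalized counts and Alox15 at most 3.06. Por, an oxidoreductase that can also feed lipid peroxidation, had 18072 and 18650.3 normalized counts in resistant libraries and 17858 and 21667 in control libraries (-0.10 ± 0.13, adjusted p = 0.667). Fth1, the ferritin heavy chain that stores iron, was the most abundant gene of the iron list, at 165831 ± 9.95 normalized counts in resistant cells and 189188 ± 20255 in control cells (SD, n = 2 each), and did not pass (-0.19 ± 0.16, adjusted p = 0.51).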
